A study of Mus musculus with 13 samples.

Results

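The nuclear genes of the mitochondrial respiratory chain were taken as the rows of the count table whose symbol begins with Nduf followed by a, b, c, s or v, with Sdh followed by a, b, c or d, with Uqcr, with Cox followed by a digit from 4 to 8, or with Atp5. This rule, which uses names and no measured value, found 96 of the 24421 genes listed. There were 44 genes of complex I, 8 of complex II, 8 of complex III, 20 of complex IV and 16 of complex V. The names also take in proteins that build or link the complexes without being structural subunits: 8 assembly factors of complex I, 4 of complex II, the supercomplex factor Cox7a2l and the coupling factor Atp5s.

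The respiratory chain passes electrons from NADH and succinate to oxygen, and the proton gradient this makes drives ATP synthesis. Complex I (NADH dehydrogenase) and complex II (succinate dehydrogenase, also an enzyme of the citric acid cycle) hand electrons to ubiquinone, complex III hands them to cytochrome c, complex IV (cytochrome c oxidase) to oxygen, and complex V is the ATP synthase. Mitochondrial DNA encodes some subunits of complexes I, III, IV and V, and nuclear genes encode the remainder. Complex IV has subunits with alternative forms, among them heart and skeletal muscle forms, a testis form and a lung form. Nucleoside analogs such as stavudine are known to inhibit the mitochondrial DNA polymerase gamma, which is separate from transcription of the nuclear genes described here. Transcripts of mitochondrial DNA were not analysed here.

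RNA was sequenced from 13 samples, 11 tumors and 2 mammary glands without cancer, from female mice of strain FVB/N-TgN 202Mul/J that carry MMTV-HER2/neu. The transgene is a rat HER2/Neu cDNA under the promoter of the mouse mammary tumor virus long terminal repeat. All 13 libraries carry this strain label, the glands included, and the genotype field of the labels reads wild type. The groups were untreated mammary glands (n = 2), primary tumors of untreated mice (n = 3), primary tumors of mice given stavudine (n = 3), recurrent tumors of mice given 17-DMAG (n = 3) and recurrent tumors of mice given 17-DMAG plus stavudine (n = 2). Stavudine, an inhibitor of reverse transcriptase, was in the drinking water at 1 mg/mL, from 2 months of age or from the appearance of a tumor, and the labels do not say which start applied to which sample. 17-DMAG, an inhibitor of the chaperone HSP90, was injected at 20 mg/kg 3 times per week, and recurrent tumors are those that grew back under it. The labels do not say whether the tumors of a group came from separate mice, so p-values measure the spread between these samples.

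Library totals ran from 39921388 to 56887708 counts. Levels are CPM, counts scaled to a common library size with the trimmed mean of M values (TMM), whose factor was 0.493 in mammary gland 2 and 0.999 to 1.12 in the other libraries. Gland 2 stood apart: milk protein genes took 38.33% of its counts, against 3.33% in gland 1 and 0.524% to 2.61% in the tumors. Skeletal muscle markers, 18 tested genes, took 0.154% of counts in primary untreated tumor 1, 0.249% in recurrent 17-DMAG plus stavudine tumor 2, 0.123% in gland 2, 0.0681% in recurrent 17-DMAG tumor 3 and 0.0275% in primary stavudine tumor 2, and at most 0.00526% in the other libraries. Mouse Erbb2, to which rat transgene reads can also count, ran from 3698 CPM in recurrent 17-DMAG tumor 1 to 19075 CPM. The luminal epithelial markers Krt8 and Epcam were present in all 13 libraries, at 230 to 637 and 402 to 1236 CPM. In bulk RNA, fewer cells of a type and less RNA per cell cannot be told apart.

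Of the 96 genes, 93 had enough counts to be tested. Cox8c and Cox7b2 had 0 to 2 counts per library. Ndufs5, an accessory subunit of complex I, was listed at 0 counts in all 13 libraries, and nothing is read from it here. Exonic bases of 35 of the 96 genes also lie in another annotated gene, and the strand setting of the counting was not stated, so reads of such pairs may be shared. Of the genes whose CPM values are given, Cox5a, Cox6c, Cox6a2, Ndufb6, Ndufa4l2 and Ndufb2 overlap a gene of the opposite strand, and Ndufb2 also one of the same strand.

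The promoters of 80 of the 96 genes were found among RefSeq sequences of mouse build GRCm38.p6 that run from 250 bases before to 50 bases after the start. For 59 of the 80, bases after the start were also found in an annotated transcript of the gene. The remainder were used without that match. Letters of 4 motifs that bind regulators of respiratory genes were searched on both strands of these windows. The palindromic NRF1 word, GCGCA directly followed by TGCGC, was present in 7 of 80 (8.75%) against 1.07% of 27025 promoters, the ETS word CCGGAAG in 20 (25%) against 9.93%, the YY1 word AAGATGGCG in 8 (10%) against 1.64%, and the ERR word AAGGTCA in 8 (10%) against 5.38%. At least 1 of the 4 was found in 36 of 80 (45%) against 16.9%, and the ETS and YY1 words can overlap. A match is a description of the letters and not a site. The upstream 250 bases held a median of 15 CG dinucleotides in the 76 genes that are not tissue isoforms, 6 in all promoters and 6 in the 4 tissue isoforms with a sequence. The upstream sequences below are those of 5 genes on which the comparisons turn, and of the muscle form Cox8b for contrast. Any match is in capitals. Bases in annotated exons were left out, for Cox6a1 only in part. Of its upstream 250 bases, 54 lie in annotated exons and 227 are printed, so some printed bases are exonic.
Cox6a1 (chr5:115348982-115349208, minus strand): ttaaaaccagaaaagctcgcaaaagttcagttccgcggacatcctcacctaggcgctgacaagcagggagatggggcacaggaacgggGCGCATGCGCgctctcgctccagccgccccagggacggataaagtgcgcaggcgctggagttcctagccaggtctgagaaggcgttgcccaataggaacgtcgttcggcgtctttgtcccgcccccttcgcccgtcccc
Cox5a (chr9:57520982-57521231, plus strand): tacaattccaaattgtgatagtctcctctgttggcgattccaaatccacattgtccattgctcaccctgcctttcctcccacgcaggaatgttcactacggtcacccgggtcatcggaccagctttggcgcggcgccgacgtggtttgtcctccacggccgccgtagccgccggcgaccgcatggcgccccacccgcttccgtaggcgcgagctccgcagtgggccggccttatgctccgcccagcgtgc
Ndufb2 (chr6:39592315-39592564, plus strand): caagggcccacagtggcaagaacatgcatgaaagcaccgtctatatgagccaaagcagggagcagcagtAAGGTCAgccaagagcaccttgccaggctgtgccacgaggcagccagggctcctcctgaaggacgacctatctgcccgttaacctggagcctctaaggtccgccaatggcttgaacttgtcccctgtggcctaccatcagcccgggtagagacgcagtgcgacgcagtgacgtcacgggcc
Cox7b (chrX:106015450-106015699, plus strand): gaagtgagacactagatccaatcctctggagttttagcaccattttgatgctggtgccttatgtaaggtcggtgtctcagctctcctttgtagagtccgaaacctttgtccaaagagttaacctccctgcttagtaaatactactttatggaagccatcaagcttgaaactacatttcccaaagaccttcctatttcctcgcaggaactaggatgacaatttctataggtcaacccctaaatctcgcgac
Atp5e (chr2:174464106-174464351, minus strand): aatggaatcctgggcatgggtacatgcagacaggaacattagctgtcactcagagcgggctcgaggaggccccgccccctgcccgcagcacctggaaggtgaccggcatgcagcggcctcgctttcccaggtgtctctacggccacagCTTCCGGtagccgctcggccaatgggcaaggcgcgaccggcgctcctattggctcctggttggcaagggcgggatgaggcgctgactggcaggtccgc
Cox8b (chr7:140900447-140900696, minus strand): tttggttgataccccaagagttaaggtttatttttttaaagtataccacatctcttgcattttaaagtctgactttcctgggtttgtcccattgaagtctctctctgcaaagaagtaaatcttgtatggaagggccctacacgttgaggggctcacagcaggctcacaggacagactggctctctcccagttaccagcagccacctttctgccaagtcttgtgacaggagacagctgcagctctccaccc

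The capitals mark the NRF1 word in Cox6a1, the ERR word in Ndufb2 and the ETS word, read on the opposite strand, in Atp5e. Cox6a1 also has the ETS word in the exonic bases left out, and Atp5e has the ERR word outside the bases shown. Cox5a, Cox7b and Cox8b have none of the 4 words in the window. Cox8b has 1 CG dinucleotide in its upstream 250 bases against 26 in Cox5a and 26 in Cox6a1.

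Across the 11 tumors, every complex was expressed. Per kilobase of exon, the mean tumor level was 299 CPM per kb for Atp5b, the catalytic beta subunit of the ATP synthase, 256 for Cox4i1, a structural subunit of complex IV, 189 for Atp5a1, the alpha subunit of the ATP synthase, and 188 for Cox8a, the widely expressed form of subunit VIII. It was 140 for Uqcrh, the hinge protein of complex III, and 0.7 for Sdhaf3, an assembly factor of complex II. The median coefficient of variation across the 11 tumors was 12.7% over the 79 members with a mean of at least 10 CPM (6.33% to 25.5%), against 16.3% over 9815 genes at that level. As a share of all counts, the members together held 0.627%, 0.603% and 0.666% in the primary untreated tumors, 0.628%, 0.638% and 0.577% under stavudine, 0.496%, 0.550% and 0.601% in the recurrent 17-DMAG tumors, 0.539% and 0.571% in recurrent tumors of the combined treatment, and 0.583% and 0.451% in the glands. The 3 lowest tumor shares were all in recurrent tumors, while the groups overlapped. Gland 2 was below every tumor by this measure, and its order turned with the denominator: with milk, muscle and adipocyte genes and the ribosomal precursor Rn45s out of the total, it held 0.800%, gland 1 held 0.645%, and the group means were 0.685% and 0.663% in primary tumors without and with stavudine and 0.600% and 0.599% in recurrent tumors.

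**Figure D1:**
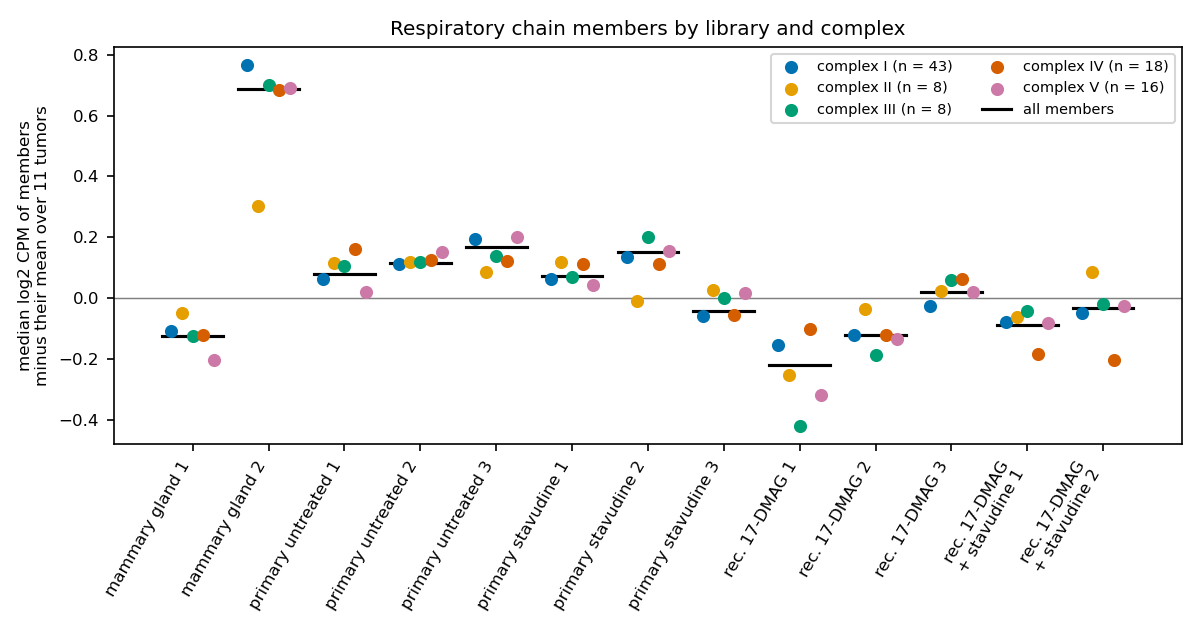
Median log2 CPM of the tested members of each complex in each library, minus their mean over the 11 tumors; points are complexes, by color, and black lines are medians over all members. Gland 2 lies at 0.30 to 0.77 in all 5 complexes and gland 1 at -0.20 to -0.05. The recurrent 17-DMAG tumor 1 has the lowest tumor median for all members, -0.22.

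The glands addressed what sets tumors apart from the tissue they arise in, and the 2 glands differed so much that the answer turned on 1 library. In gland 2, 88 of 93 members were higher than in gland 1, with a median ratio of 1.73 (0.888 over all genes), and 26 were over 2 times higher. Gland 2 was above all 11 tumors for 72 of 93 members, against 25.8% of all genes tested. It was so for 34 of 43 members of complex I, 5 of 8 of complex II, 8 of 8 of complex III, 12 of 18 of complex IV and 13 of 16 of complex V. Gland 1 was within the range of the tumors for 82 of 93 members, below all tumors for 9 (7.77% of all genes) and above for 2. Gland 2 also held 0.0993% of its counts in brown adipocyte markers and 98.1 CPM of the brown fat uncoupling protein Ucp1, against 0.00746% and 27.6 CPM in gland 1 and at most 0.00600% and 36.7 CPM in the tumors, and its milk protein share is given above. Cidea was at 1823 CPM in gland 2, where the brown adipocyte markers summed to 2017 CPM, so their share there rests largely on that gene. In gland 1 it was at 24.5 CPM, and the markers summed to 66.4 CPM. Which cells these markers came from, and their part in the level of respiratory genes, was not tested.

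**Figure D2:**
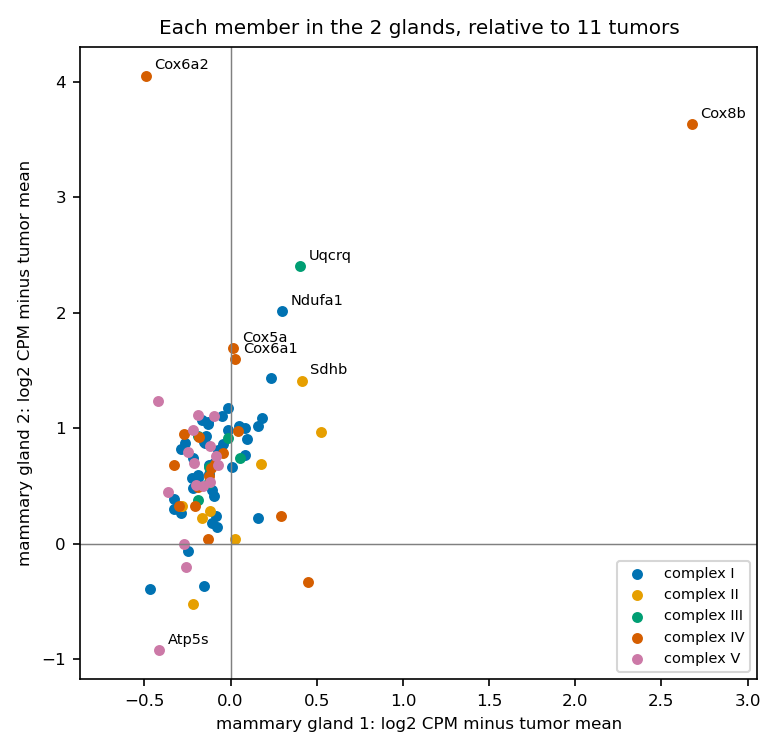
Each point is a tested member, with log2 CPM in gland 1 (horizontal) and gland 2 (vertical) minus its mean over the 11 tumors, colored by complex. Most points lie above 0 on the vertical axis, where the complex medians are 0.30 to 0.77, and close to 0 on the horizontal axis, where they are -0.20 to -0.05.

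Against both glands, 7 of 93 members (7.53%) were lower in all tumors together at an adjusted p under 0.05 by edgeR's quasi-likelihood test, and none was higher (1.6% of all genes). The background was 10.4% of 17135 genes called and 8.81% called lower, so the share of members was no larger than that of all genes. In all, 82 of 93 members had a log2 change below 0 (51.6% of all genes), with a median of -0.36 against -0.02. An unadjusted p under 0.05 was found for 36 members (29.6% of all genes), 35 of them lower (19%). The 7 belonged to complexes I to IV, with none of the 16 members of complex V. By role they were 2 of 7 core and 1 of 28 accessory subunits of complex I, 1 of 4 subunits of complex II, 1 of 8 of complex III and 2 of 11 ubiquitous subunits of complex IV.

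Uqcrq, a small subunit of complex III, was at 27.6 and 110 CPM in the glands and 14.7 to 24.4 CPM in the 11 tumors with a median of 21.7. All 11 tumors lay below both glands, and the log2 change was -1.71 ± 0.32 (SE, adjusted p = 0.0105). Ndufa1, a small accessory subunit of complex I, was at 18.6 and 61.2 CPM in the glands and 11.4 to 18.7 in the tumors (-1.42 ± 0.28, adjusted p = 0.0132). Only gland 2 stood clear of the tumors for Ndufa1. Cox6a1, the ubiquitous form of subunit VIa, was at 71.2 and 212 CPM in the glands and 54.4 to 85.2 in the tumors (-1.03 ± 0.26, adjusted p = 0.0342). Sdhb, the iron-sulfur subunit of succinate dehydrogenase, was at 51.6 and 103 CPM in the glands and 24.2 to 52.3 in the tumors (-0.98 ± 0.25, adjusted p = 0.0361). Gland 1 lay inside the tumor range for both. Cox5a, a nuclear subunit of cytochrome c oxidase, was at 38.0 and 122 CPM in the glands and 28.6 to 48.1 in the tumors (-1.09 ± 0.29, adjusted p = 0.0418). The core complex I subunit Ndufv1, which binds NADH, was at 56.8 and 106 CPM in the glands and 34.0 to 59.5 in the tumors (-0.71 ± 0.19, adjusted p = 0.0438).

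Gland 2 carried these calls. Without it, the median member was 0.22 higher in tumors. Cox5a and Cox6a1 turned to 0.069 and 0.046, while Uqcrq was at -0.31, Ndufa1 at -0.23, Sdhb at -0.31 and Ndufv1 at -0.10. Without gland 1, Cox5a was at -1.66 and Cox6a1 at -1.58. With 1 gland left, the spread comes from the tumor groups alone, so only log2 changes are read from these fits. DESeq2 called 16 members (18.6% of all genes). Limma voom called 1, the muscle form Cox8b. Leaving out the 3 tumors with the most muscle, primary untreated tumor 1, recurrent 17-DMAG tumor 3 and recurrent 17-DMAG plus stavudine tumor 2, also left only Cox8b called. Leaving out single tumors gave 2 to 8 calls. Groups that did not overlap numbered 2 lower members, Uqcrq and the complex II assembly factor Sdhaf1, against 7.37% of all genes, and no higher one (4.14%).

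With the primary untreated tumors alone against the glands, no member was called by edgeR (2.11% of all genes), 13 had an unadjusted p under 0.05 (24.5% of all genes), 11 of them lower (15.2%), and limma voom called none. DESeq2 called 4, among them Uqcrq, Sdhb and Ndufa1 (13.6% of all genes). Here 72 of 93 members were below 0 (51.2% of all genes) and the median was -0.24, which turned to 0.32 without gland 2. Without gland 1, Uqcrq was at -2.24, Ndufa1 at -1.755 and Sdhb at -1.46. The direction of the members thus turned on gland 2, as the median shows. The count of 13 was 7 without primary untreated tumor 2 and 6 without tumor 3. It was 2 with the groups compared fitted alone and 5 with the replicate block. Atp5s, a coupling factor of the ATP synthase, was the reverse of most members, at 6.22 and 4.35 CPM in the glands and 7.43, 11.9 and 11.1 CPM in the primary untreated tumors (0.94, not called).

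Other mitochondrial genes in the same contrast of all tumors with glands were counted from fixed lists. Of 18 tested genes of the citric acid cycle and pyruvate dehydrogenase, 7 were called lower (8.81% of all genes) and the median was -0.52. Here too gland 2 stood apart: this list summed to 4205 CPM in gland 2, 1796 CPM in gland 1 and 1304 to 1770 CPM in the tumors. Of 14 for electron carriers and ubiquinone synthesis 2 were lower (median -0.34), of 32 further assembly factors 3 (-0.12), of 77 mitochondrial ribosomal proteins 1 (-0.12) and of 76 cytosolic ribosomal proteins none (0.08). Of 13 regulators of mitochondrial biogenesis 1 was lower, Ppargc1b, a coactivator of respiratory genes, at -2.53 ± 0.38 (adjusted p = 0.00423). Of the 13 regulators 6 were above 0, and the median was -0.01. The related coactivator Ppargc1a was at 1.39 ± 0.57 (adjusted p = 0.136) and was not called.

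The contrast of stavudine with untreated in primary tumors asked whether the drug alone went with other levels of these genes, and no member was called by edgeR, DESeq2 or limma voom. No gene of 16870 was called by edgeR either (0%), and DESeq2 called 0.107%. An unadjusted p under 0.05 was found for 2 members (2.15% against 3.76% of all genes). They were Atp5e, the epsilon subunit of the ATP synthase, and Uqcrh. Atp5e was at 44.3, 51.1 and 43.8 CPM in untreated and 40.1, 37.7 and 35.5 CPM in stavudine tumors, so the groups did not overlap (-0.31 ± 0.11, adjusted p = 1). Uqcrh was at 81.9, 44.9 and 69.5 CPM in untreated and 91.3, 107 and 83.8 CPM in stavudine tumors (0.51 ± 0.21, adjusted p = 1). The value of 44.9 belongs to primary untreated tumor 2, in which genes of chromosome 4 were low as a block. The log2 change was below 0 for 70 of 93 members (55.1% of all genes), with a median of -0.10 against -0.03. The median ran from -0.12 to -0.035 with any 1 tumor left out, the latter without primary stavudine tumor 3. The count of 2 was 0 without primary untreated tumor 2 or primary stavudine tumor 2, 1 without primary untreated tumor 3, primary stavudine tumor 1 or primary stavudine tumor 3, 5 without primary untreated tumor 1, and 4 without recurrent 17-DMAG tumor 1 or tumor 3. With the replicate block it was 1. Groups that did not overlap were 11 lower (5.83% of all genes) and 2 higher, Uqcrh and the assembly factor Ndufaf6 (5%). Both of these lie on chromosome 4. Relative to the median of the 11 tumors, other genes there had a log2 median of -0.81 in primary untreated tumor 2 and -0.24 in tumor 3. All 6 tested tissue isoforms were below 0, with a median of -0.58, and muscle marker counts were below 0 for 18 of 18 genes. Primary untreated tumor 1 stood apart here. Muscle markers took 0.154%, 0.00166% and 0.00526% of counts in untreated and 0.00213%, 0.0275% and 0.00278% in stavudine tumors. The muscle form Cox8b was at 8.16, 0.143 and 1.06 CPM against 1.47, 4.00 and 1.22 CPM. The 6 also include the lung form Cox4i2 and the testis form Cox6b2. The part of muscle in this was not tested.

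Recurrence after 17-DMAG was compared with primary tumors separately without and with stavudine, and most members had log2 changes below 0 in both, while none was called by edgeR. Without stavudine, 83 of 93 members had a log2 change below 0 (50.6% of all genes), with a median of -0.24 against -0.01. The median stayed at -0.28 to -0.18 with any 1 tumor left out. By complex the median was -0.23 in complex I (40 of 43 below 0), -0.16 in complex II (6 of 8), -0.26 in complex III (7 of 8), -0.21 in complex IV (14 of 18) and -0.26 in complex V (16 of 16). The edgeR test called 0 of 16870 genes (0%), DESeq2 0.413% of all genes with no member among them, and limma voom no member. An unadjusted p under 0.05 was found for 20 members (21.5%), all lower, against 9.69% of all genes, 4.9% lower and 4.79% higher. DESeq2 gave 19 such members and limma voom 21. Recurrent values all below primary ones were found for 27 members (7.45% of all genes), and all above for none (7.65%).

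Cox7b, a small subunit of complex IV on the X chromosome, was at 85.4, 93.0 and 101 CPM in the primary untreated tumors and at 64.2, 66.4 and 78.3 CPM in the recurrent 17-DMAG tumors. The groups did not overlap, and the change was -0.43 ± 0.13. Ndufb2, an accessory subunit of complex I, was at 23.7, 26.6 and 29.6 CPM against 20.3, 20.2 and 21.1 CPM (-0.39 ± 0.12). Ndufb7 was at 24.9, 36.1 and 34.2 CPM against 19.3, 21.8 and 26.2 CPM (-0.51 ± 0.17). For Ndufb7, the highest recurrent tumor lay above the lowest primary one. Uqcrfs1, the Rieske iron-sulfur protein of complex III, was at 85.9, 93.4 and 96.0 CPM against 49.9, 69.7 and 81.5 CPM (-0.47 ± 0.16). The smallest adjusted p of any member in this contrast was 0.509. The core subunits Atp5b (-0.28 ± 0.13), Sdha, the flavoprotein of complex II (-0.36 ± 0.15), and Cox4i1 (-0.12 ± 0.14) were below 0, and Sdhb was at 0.09 ± 0.24.

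The count of 20 moved with single tumors. It was 6 without recurrent 17-DMAG tumor 1, 4 without recurrent 17-DMAG tumor 2, 33 without recurrent 17-DMAG tumor 3, 9 without primary untreated tumor 2 and 9 without primary untreated tumor 3. Leaving out tumors of the stavudine groups, which lend only their spread, gave 10 without primary stavudine tumor 1, 12 without tumor 2 and 15 without tumor 3, and 11 without either recurrent 17-DMAG plus stavudine tumor. It was 7 with the 2 groups fitted alone and 13 with the replicate block. Here and in the other contrasts, the share of all genes in such alternative fits is not given. These counts therefore show only how far the number of members moved, and not how members stood to all genes.

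Under stavudine, 68 of 93 members were below 0 in recurrent 17-DMAG plus stavudine against primary stavudine tumors (48.2% of all genes), with a median of -0.11 (-0.16 to -0.07 with any 1 tumor left out). No gene was called by edgeR (0%), and 9 members had an unadjusted p under 0.05 (9.68% against 10.1% of all genes), 8 of them lower (4.64% of all genes) and 1 higher (5.42%). Cox6c, a subunit of complex IV, was at 103, 116 and 85.2 CPM in primary and 70.7 and 66.9 CPM in recurrent tumors (-0.55 ± 0.14, adjusted p = 0.313). Cox7c was at 83.6, 90.9 and 74.4 CPM against 66.2 and 60.9 CPM (-0.38 ± 0.13), and Cox7a2, the ubiquitous form of subunit VIIa, at 79.5, 91.7 and 68.5 CPM against 60.3 and 50.7 CPM (-0.52 ± 0.19). In these 3 genes both recurrent tumors lay below all 3 primary tumors. DESeq2 called 1 member, Cox6c (adjusted p = 0.0341), and 1.95% of all genes, and limma voom called none. The testis form Cox6b2 was at 0.368, 0.0870 and 0.359 CPM against 0.430 and 1.65 CPM (1.94 ± 0.70). Groups with 2 and 3 tumors did not overlap for 39 lower members (17.9% of all genes) and 4 higher ones, among them Sdhaf4, Cox4i2 and Cox6b2 (17.4%).

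The count of 9 was 2 without primary stavudine tumor 2, 2 without recurrent 17-DMAG plus stavudine tumor 2, 5 without primary stavudine tumor 1 and 17 without recurrent 17-DMAG tumor 1, and 1 without the 3 tumors with the most muscle; with the replicate block it was 2. In other marker lists of this contrast, none of whose genes was called, 20 of 20 proliferation genes were below 0 (median -1.06) and 18 of 18 muscle genes above (median 3.81), the latter from tumor 2 at 0.249% of counts against 0.00400% in tumor 1.

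**Figure D3:**
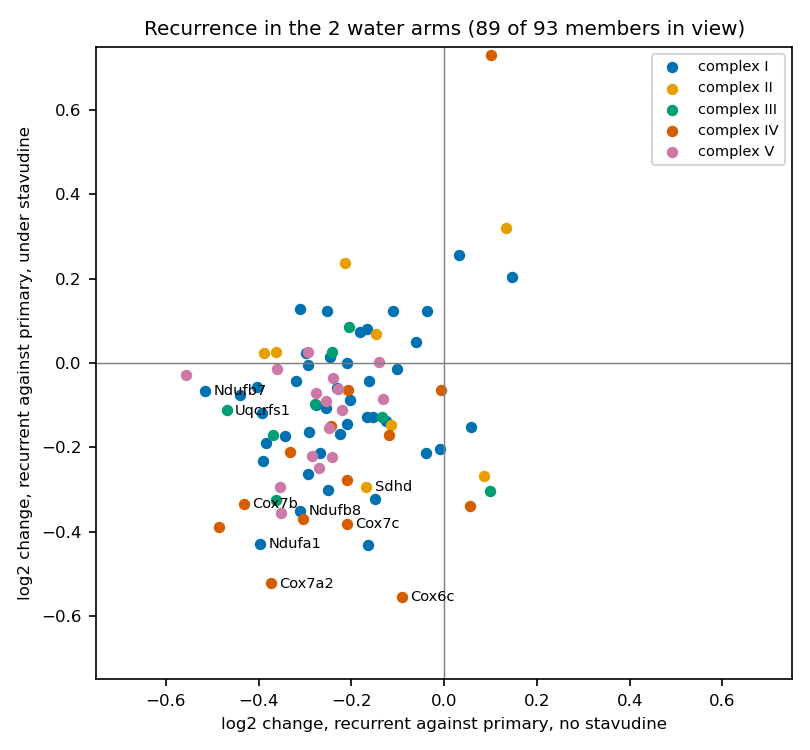
Log2 change of each tested member between recurrent and primary tumors without stavudine (horizontal) and under stavudine (vertical), colored by complex; 89 of 93 members are in view. At the lower left are members below 0 in both, 64 of all 93, and in the upper right those above 0 in both, 6 of 93.

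The arms without and with stavudine share no tumor. Below 0 in both were 64 of 93 members (68.8%) against 28.1% of all genes, and above 0 in both were 6 (6.45%) against 29.2%. Cox7b, Ndufa1 and Ndufb8 were lower with an unadjusted p under 0.05 in each arm, 3.23% of members against 0.427% of all genes. Averaged over both arms, 83 of 93 members were below 0 (49.7% of all genes) and the median was -0.17 against 0.00, with a range of -0.20 to -0.14 when any 1 tumor was left out. Among all genes no call was made by edgeR (0%). An unadjusted p under 0.05 was found for 30 members (32.3% against 13.6% of all genes), and 29 of these were lower (31.2% against 6%); limma voom gave 28.

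Of the 11 ubiquitous subunits of complex IV all 11 were below 0, with a median of -0.27, and 8 had an unadjusted p under 0.05: Cox7b, Cox7c, Cox7a2, Cox6c, Cox6a1, Cox8a, Cox6b1 and Cox5b. Cox7b was at -0.38 ± 0.10 (unadjusted p = 0.00305, adjusted p = 0.287), Cox7a2 at -0.45 ± 0.13 and Cox7c at -0.30 ± 0.08. In complex I the share was 11 of 28 accessory subunits (median -0.18), with Ndufa1 first at -0.41 ± 0.11 (adjusted p = 0.287), and 1 of 7 core subunits (median -0.14), Ndufv1 at -0.26 ± 0.11. It was 0 of 8 complex I assembly factors, 1 of 8 members of complex II (Sdhd, a membrane anchor), 3 of 8 of complex III (Uqcr10, Uqcrb and Uqcrfs1) and 5 of 16 of complex V, with Atp5o, the stalk protein also known as OSCP, at -0.32 ± 0.09 (adjusted p = 0.289). The difference between roles was not tested. The exception in direction was Cox6b2 at 1.06 ± 0.47 (7.61% of all genes were higher at an unadjusted p under 0.05).

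All 5 recurrent tumors lay below all 6 primary ones for 6 members (6.45% against 0.688% of all genes): Ndufa12, Uqcrb, Cox7c, Atp5j, Atp5k and Ndufb2. For none were they all above (0.652%). Cox7c was at 72.1, 78.2, 88.3, 83.6, 90.9 and 74.4 CPM in the primary and 67.1, 71.9, 69.7, 66.2 and 60.9 CPM in the recurrent tumors. Ndufb2 was at 23.7, 26.6, 29.6, 25.5, 25.4 and 22.7 CPM against 20.3, 20.2, 21.1, 20.1 and 21.6 CPM. The nearest values are 72.1 against 71.9 CPM for Cox7c and 22.7 against 21.6 CPM for Ndufb2, so the gap is small. DESeq2 called 3 members, Cox7b, Ndufa1 and Ndufb2 (adjusted p = 0.0325, 0.0279 and 0.0466), 2.54% of all genes being called there. The count of 30 was 10 without recurrent 17-DMAG plus stavudine tumor 2, 15 without primary stavudine tumor 2, 18 without primary untreated tumor 3, 19 without recurrent 17-DMAG tumor 2, 19 without primary stavudine tumor 1, 18 without recurrent 17-DMAG plus stavudine tumor 1, and 15 without the 3 tumors with the most muscle; with the replicate block it was 17. Pan-leukocyte markers were above 0 in the same contrast for 8 of 8 genes (median 0.73), with a summed share of 0.0279% to 0.0539% of counts in the primary and 0.0373% to 0.0857% in the recurrent tumors. Their part in the values of the members was not tested.

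Other mitochondrial lists had smaller medians in the averaged contrast and no gene called by edgeR: -0.15 for the citric acid cycle and pyruvate dehydrogenase, -0.06 for electron carriers, -0.08 for further assembly factors, -0.06 for biogenesis regulators, -0.05 for mitochondrial and 0.01 for cytosolic ribosomal proteins.

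In recurrent tumors, stavudine against none gave no called gene by edgeR (0%), and DESeq2 called 1.77% of all genes with no member among them. An unadjusted p under 0.05 was found for 2 members (2.15% against 7.84% of all genes), both lower (4.38% of all genes) and of complex IV. Cox6c was at 90.0, 84.2 and 91.6 CPM without and 70.7 and 66.9 CPM with stavudine (-0.36 ± 0.14, adjusted p = 0.583). Ndufa4, a subunit of complex IV first assigned to complex I, was at 63.7, 46.7 and 50.7 CPM without and 43.1 and 37.8 CPM with stavudine (-0.40 ± 0.16, adjusted p = 0.597). In both genes the groups did not overlap, as was so for 5 lower members (10.5% of all genes) and 11 higher ones (10.9%). All 11 ubiquitous subunits of complex IV were below 0, with a median of -0.13, whereas the median over all members was 0.05 and 40 of 93 were below 0 (50.6% of all genes). The count of 2 was 0 without recurrent 17-DMAG plus stavudine tumor 2, 1 without tumor 1 of that group, 5 without recurrent 17-DMAG tumor 1, and 3 without either of the other 2 recurrent 17-DMAG tumors.

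The interaction, which asks whether recurrence differed with stavudine, called no member by edgeR, DESeq2 or limma voom (0% of all genes by edgeR, 1.05% by DESeq2). An unadjusted p under 0.05 was found for 2 members (2.15% against 7.84% of all genes), Cox6c at -0.46 ± 0.19 and Ndufb10, an accessory subunit of complex I, at 0.44 ± 0.19. Below 0 were 22 of 93 members (47.5% of all genes), and the median was 0.13. These tests are of single genes, so they cannot say whether the recurrence medians of -0.24 without and -0.11 under stavudine differ. That difference was not tested.

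Core subunits show the same contrasts in single genes, and none of those given here was called by edgeR. DESeq2 called Ndufs1 in all tumors against glands (-0.48, adjusted p = 0.0299). Ndufs1, the large iron-sulfur subunit of complex I, was at -0.46 ± 0.14 in all tumors against glands, -0.25 ± 0.10 in recurrence without stavudine and 0.015 ± 0.11 in recurrence under stavudine. Uqcrc1, a core protein of complex III, was at -0.52 ± 0.21, -0.24 ± 0.17 and 0.03 ± 0.18 in these contrasts. For stavudine against none, Ndufs1 was at -0.10 ± 0.10 in primary and 0.16 ± 0.11 in recurrent tumors, and Uqcrc1 at -0.22 ± 0.17 and 0.05 ± 0.18. The interaction was 0.26 ± 0.14 for Ndufs1 and 0.27 ± 0.25 for Uqcrc1.

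Levels of some members followed the chromosome on which they lie in 2 tumors. In primary untreated tumor 2, other genes of chromosome 4 had a median of -0.81 relative to the median of the 11 tumors on the log2 scale, while the other 19 chromosomes were at 0.00 to 0.07. All 5 members on chromosome 4 were the lowest of the 11 tumors there, with a median of -0.74, and the other 88 had a median of 0.11, of which 23 were the highest. Ndufb6, an accessory subunit of complex I, was at 11.8 CPM in that tumor and 17.8 to 24.8 CPM in the other 10. Sdhb was at 24.2 CPM there and 32.7 to 52.3 CPM in the others, and Ndufaf4, an assembly factor, at 7.91 CPM against 8.67 to 18.2 CPM. The remaining members on this chromosome were Uqcrh and Ndufaf6.

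In recurrent 17-DMAG tumor 1 the chromosomes split. On 7 of them (1, 2, 3, 6, 7, 15 and 17) other genes had medians of 0.12 to 0.20, and the 45 members there had a median of 0.00, with 22 above and 22 below. On the other 13 the medians were -0.30 to -0.15, and 44 of 48 members were below 0, with a median of -0.40, and 33 were the lowest of the 11 tumors. In all, this tumor was the lowest for 42 of 93 members, against 18 for recurrent 17-DMAG tumor 2, and 7 members were highest in it. In the other 9 tumors the chromosome medians were between -0.24 and 0.12, with 4 of 180 beyond 0.1 in size. The lowest, -0.24, was that of chromosome 4 in primary untreated tumor 3. DNA copy number was not measured in these data. Without both tumors, the recurrence count without stavudine was 4 in place of 20 and its median -0.18, that under stavudine 18 in place of 9, and the averaged count 24 in place of 30. With each library's chromosome medians subtracted, the counts were 18, 13 and 27.

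**Figure D4:**
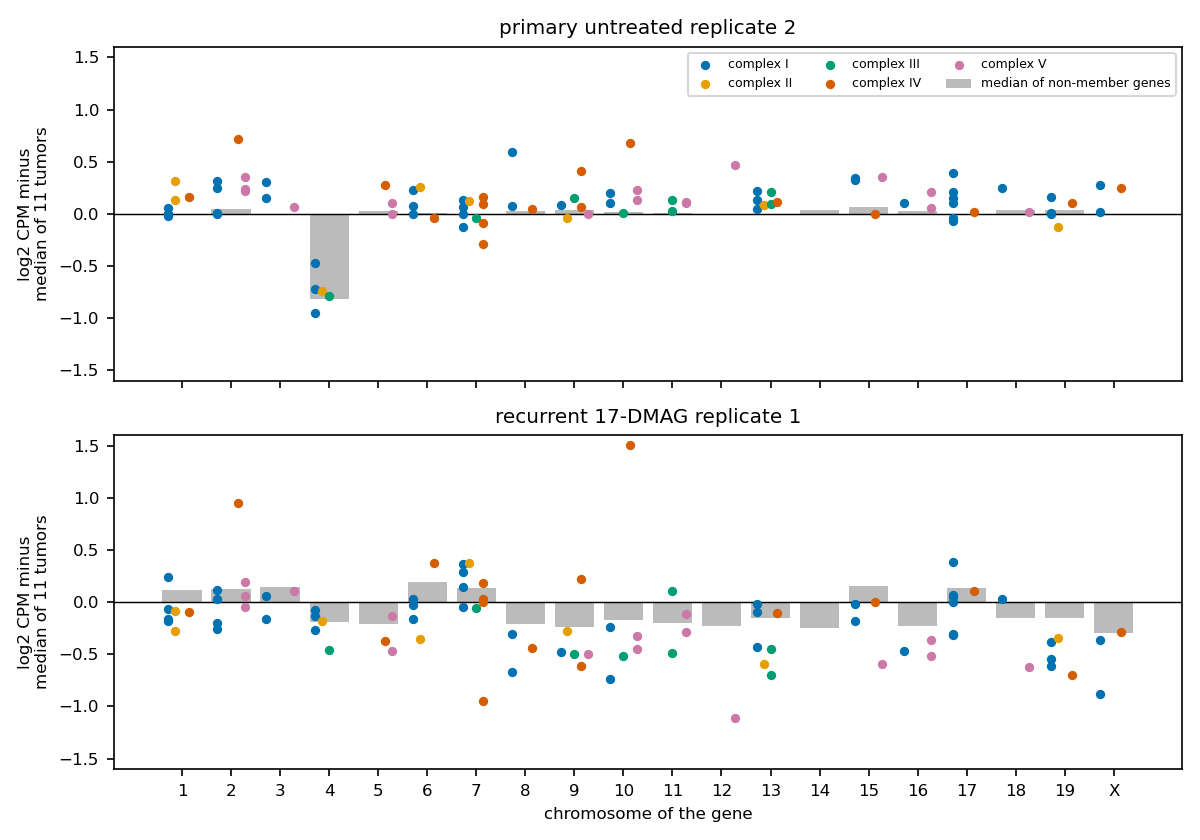
Log2 CPM minus the median of the 11 tumors for each tested member (colored points, by complex) by chromosome in primary untreated tumor 2 (top) and recurrent 17-DMAG tumor 1 (bottom); grey bars are medians of other genes of the chromosome, and 1 member in each panel is beyond the axis limit of 1.6. Chromosome 4 stands at -0.81 in the top panel, and 13 chromosomes stand at -0.30 to -0.15 in the bottom one.

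The tissue isoforms of complex IV were low in most tumors and varied strongly between libraries of a group. Cox6a2, the heart and skeletal muscle form of subunit VIa, had 95 counts (1.89 CPM) in primary untreated tumor 1, 146 (2.98 CPM) in recurrent 17-DMAG plus stavudine tumor 2, 80 (2.86 CPM) in gland 2 and 26 (0.546 CPM) in recurrent 17-DMAG tumor 3, and 0 to 5 counts in the other 9 libraries. The 4 libraries with most Cox6a2 are also the 4 with most muscle marker counts, from 0.0681% to 0.249%. Cox8b, the form of subunit VIII of heart, skeletal muscle and brown fat, was at 7.78 and 15.1 CPM in the glands, 8.16 CPM in primary untreated tumor 1, and 0.143 to 4.00 CPM in the other 10 tumors. Per exon length, Cox8b made up 12.4% and 10.5% of Cox8a plus Cox8b in the glands, 9.60% in primary untreated tumor 1, 6.12% in recurrent 17-DMAG plus stavudine tumor 2, 5.21% in primary stavudine tumor 2 and at most 3.22% in the others. The log2 change of all tumors against glands was -2.52 ± 1.02 for Cox8b, which was not called. Without the 3 tumors with the most muscle it was -4.14. Those tumors held 8.16, 2.60 and 3.63 CPM of Cox8b, itself a muscle form, while gland 2, with 0.123% of counts in muscle markers, was kept. A larger drop was thus built into that fit, and nothing further is read from it.

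**Figure D5:**
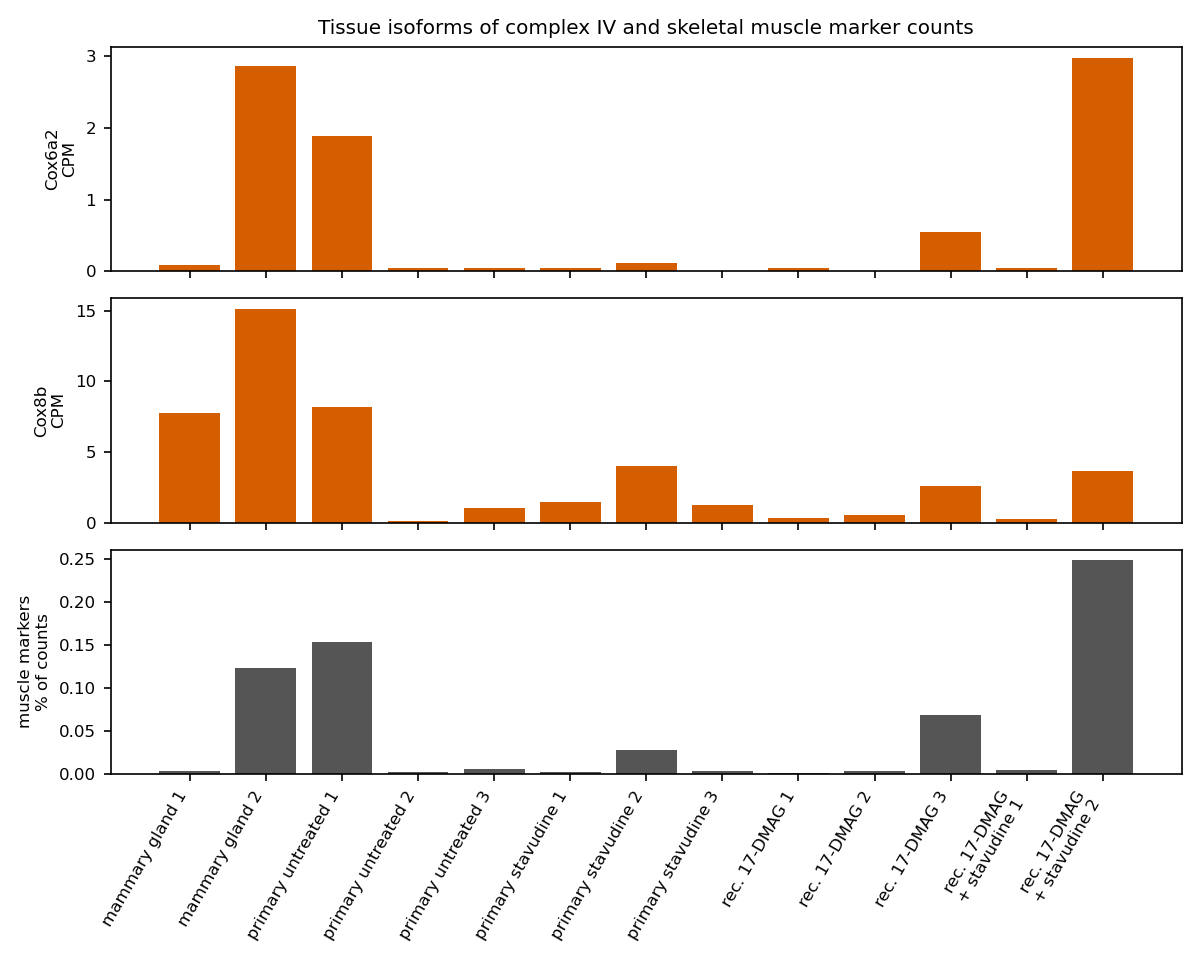
CPM of Cox6a2 and Cox8b (top and middle, bars from 0) and the percent of counts in skeletal muscle markers (bottom) in each library. Primary untreated tumor 1 and recurrent 17-DMAG plus stavudine tumor 2 have the tallest tumor bars for Cox6a2, 1.89 and 2.98 CPM, and for muscle markers, 0.154% and 0.249%.

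Cox7a1, the muscle form of subunit VIIa, was steadier, at 3.08 to 9.12 CPM in the tumors and 4.93 and 7.60 CPM in the glands, and made up 7.40% to 12.9% of Cox7a1 plus Cox7a2 per length in the tumors. The lung form Cox4i2 stayed at 0.239 to 1.09 CPM and 0.114% to 0.713% of Cox4i1 plus Cox4i2. Ndufa4l2, a paralog of Ndufa4 known to be induced in hypoxia, was at 0.326 to 3.36 CPM in the tumors, its highest value being in recurrent 17-DMAG tumor 1. Another set of paralogs encodes the same c subunit of the ATP synthase. Of their summed CPM, Atp5g1, Atp5g2 and Atp5g3 held 20.3%, 30.4% and 49.2% in gland 1 and 32.6%, 16.0% and 51.4% in gland 2. In the tumors they held 20.3% to 24.9%, 21.6% to 33.3% and 43.9% to 58.1%. Recurrent 17-DMAG tumor 1 had the lowest tumor share of Atp5g2 and the highest of Atp5g3, which lie on chromosomes 15 and 2. Other genes of both chromosomes had medians above 0 in that tumor (0.15 and 0.12), while Atp5g2 was at -0.59 relative to the tumor median.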

How the data were processed

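The authors removed ribosomal RNA from total RNA, made libraries with a kit that marks strand, and deposited unnormalized counts of reads per gene for each library. The submitters' processing notes name bcl2fastq 2.20, STAR, featureCounts and Subread 1.6.2; the strand setting and the handling of multi-mapped reads are not given in the sources used here. Columns of the table that belong to no sample numbered 0.

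Genes with low counts were removed with filterByExpr, libraries were scaled by TMM, and groups were compared in R 4.3.3 with the quasi-likelihood test of edgeR 4.0.16 on all genes, two-sided, with Benjamini and Hochberg adjustment over all genes of a contrast and a call at an adjusted p under 0.05. Gland contrasts were fitted on 13 libraries (17135 genes, biological coefficient of variation 0.431) and the others on 11 tumors (16870 genes, 0.402), each group having its own mean. DESeq2 1.42.0, limma 3.58.1, other scalings and filters, a replicate block and left-out libraries were alternatives. Scripts were tested on simulated data. Levels are CPM, deviations are log2 CPM with a prior count of 2, and 3 counts were taken as the floor of detection, which like any counting limit covers counting error only.

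The members, gene lists and tests were chosen with earlier results of these data known. The rule for named genes took core subunits of each complex and the isoforms of complex IV, of which the text gives a part; further, the 4 members with the largest change in each direction among called ones, or the 3 with the smallest p. Other members named were chosen after their values were seen. The check of chromosomes was added after seeing the data. Values of 1 member are not reported here.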

Additional observations from a re-analysis of the deposited data

How the results depend on the processing

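Cox6a2 had 0 to 5 counts in 9 libraries, and the glands and the recurrent 17-DMAG plus stavudine tumors had 2 libraries each. The 7 members called in all tumors against glands became 16 with DESeq2, 1 with limma voom, 0 with the replicate block (24 members at an unadjusted p under 0.05), 1 without the 3 tumors with the most muscle, 3 with chromosome medians subtracted (an alternative added after seeing the data), and 0 to 57 with 1 library left out. The median of -0.36 over all 93 tested members ran from -0.66 to 0.22, turning without gland 2, as did Cox5a (-1.66 to 0.069) and Cox6a1 (-1.58 to 0.046). For primary untreated tumors against glands the count of 0 became 4 with DESeq2 and 0 to 37 with 1 library left out, and the median of -0.24 ran from -0.56 to 0.32. With 1 library left out, the highest count in both gland contrasts came from the fit without gland 1. The lowest for all tumors came from the fit without gland 2. With 1 gland left, the spread comes from the tumor groups alone, so nothing is read from these counts. Among the alternatives, the share of all genes is given only for DESeq2, so the other counts show only how far the number of members moved. DESeq2 called 1 member in recurrence under stavudine and 3 in the averaged recurrence, against 0. The cause was not tested, beyond the fewer samples where a library was left out. With milk, muscle and adipocyte genes and Rn45s out of the total, the mean share of all members was 0.722% in glands, 0.685% in primary untreated, 0.663% in primary stavudine and 0.599% in recurrent 17-DMAG plus stavudine tumors. The counts of called members in the other contrasts were 0 under every alternative run. The correlation of deviations was -0.289 to 0.217 over 15 same-numbered pairs (median -0.048). Over 30 other pairs it was -0.355 to 0.357 (median 0.032). The deviations were centred within groups of 2 or 3 libraries, so this check cannot show whether same-numbered samples were paired. Beside the 7 gland calls, the replicate block changed no call.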
